A study of Mus musculus with 32 samples.

Results

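Collagen chain genes were examined in single-cell RNA sequencing of stromal vascular fraction cells, the cells that remain when mature adipocytes are removed from fat. A chain gene was any gene with a symbol made of Col, a number, the letter a and a number, and with at least 50 unique molecular identifiers (UMIs, counts of captured molecules) over all barcodes. Of 44 such symbols, 35 met the minimum, among 31053 genes in the matrix, of which 15032 had at least 50 UMIs. The other 9 (Col2a1, Col9a1, Col9a2, Col10a1, Col11a1, Col13a1, Col19a1, Col25a1 and Col26a1) had between 1 and 41 UMIs in all and were not described further.

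The cells came from epididymal fat of C57BL/6 mice on a normal diet (ND) or a high fat diet (HFD) for 16 weeks. All mice, wild type (WT) or CD169-DTR, received diphtheria toxin (DT) for 7 days. In the CD169-DTR strain, cells that use the Siglec1 locus, which encodes the macrophage lectin CD169, also make a receptor for the toxin and are its targets. Leukocytes (CD45+) and other cells (CD45-) were sorted apart and combined 1:1, and the sort left out many F4/80-high cells and Ly6C-high monocytes, so the sort sets the share of each class of cells. Each group was 1 library, from a number of mice that the sources used here do not give. The libraries are named by their labels, ND_WT, ND_DTR, HFD_WT and HFD_DTR, and sets of 4 values below are in that order.

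Siglec1, whose cells the toxin targets, went against the labels: it had 5, 113, 51 and 190 UMIs, or 0.139, 3.5, 1.12 and 3.02 CPM (counts of the gene scaled to a common total of UMIs), with more in both libraries labelled DTR. Whether the inserted receptor changes the counted 3′ end of Siglec1 is not known. All directions below therefore belong to the library labelled so. The libraries held 5701, 4014, 6696 and 6292 barcodes with 33390225 to 64766718 UMIs each, and 4984, 3597, 5120 and 5639 cells passed the filters. Between 1.25% and 4.86% of a library's barcodes also occurred in another library, and 239 cells labelled ND_WT were shallow copies of deeper cells elsewhere. Leaving out the low copies kept the 8 counts of 2-fold members in fibroblast-like cells within 1.5 times their value. With 1 library per group, diet or label and library cannot be told apart, no test was possible, and all intervals are 95% counting intervals that hold no variation between mice.

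Collagens are built from 3 chains wound into a triple helix. Fibrillar collagens (types I, III and V) form the tension-bearing fibres of connective tissue, type IV forms the sheet of basement membranes, and type VI forms beaded filaments around cells, which are abundant in fat. Fibril-associated collagens sit on the surface of fibres, and multiplexins lie at the border of basement membrane and stroma. Progenitor fibroblasts are known as the main makers of fibrillar collagen in fat, while endothelial cells and adipocytes are wrapped in type IV collagen. UMIs were read from the 3′ end of transcripts, 1 end per molecule, so levels of different genes were set side by side in CPM of the class total, without a length correction. In whole classes of cells, a lower level cannot be told apart from fewer cells that make the gene.

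The arrangement of the type IV genes and the sequence before the annotated start of 2 members are shown for context, since start sites were not measured. Col4a1 (chromosome 8, 11198423 to 11312826, minus strand, GRCm38) and Col4a2 (chromosome 8, 11312805 to 11449287, plus strand) lie head to head, and the annotated genes overlap by 22 bases. Col4a3 and Col4a4 on chromosome 1 lie 71 bases apart, and Col4a5 and Col4a6 on chromosome X lie 1308 bases apart, each pair on opposite strands. The overlap of Col4a1 and Col4a2 is at their 5′ ends, away from the 3′ ends that were counted. It is shown in capitals, on the plus strand at chr8:11312801-11312830, from RefSeq windows of GRCm38.p6.
Col4a1 and Col4a2 starts: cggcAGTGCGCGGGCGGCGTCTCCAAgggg

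The 250 bases before the start are shown for Col3a1 (chr1:45311288-45311537, plus strand), the most abundant member, and for Col8a1 (chr16:57754738-57754987, minus strand), the member with the highest ratio between diets in the libraries labelled WT. Capitals mark the TATA box letters TATAAA, the CAAT box letters CCAAT and the GC box letters GGGCGG, each searched on both strands.
Col3a1: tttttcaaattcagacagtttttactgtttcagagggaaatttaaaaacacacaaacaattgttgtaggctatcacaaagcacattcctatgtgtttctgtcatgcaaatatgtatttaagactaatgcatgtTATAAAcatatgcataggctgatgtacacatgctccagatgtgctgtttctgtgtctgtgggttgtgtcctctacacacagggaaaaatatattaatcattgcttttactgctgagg
Col8a1: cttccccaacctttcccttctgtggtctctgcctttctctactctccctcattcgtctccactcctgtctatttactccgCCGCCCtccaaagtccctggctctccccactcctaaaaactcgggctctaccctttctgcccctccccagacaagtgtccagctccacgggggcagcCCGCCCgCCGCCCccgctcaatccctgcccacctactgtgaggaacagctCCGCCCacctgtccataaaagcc
The Col3a1 window holds 1 TATAAA on the forward strand, and the Col8a1 window holds 4 GGGCGG on the reverse strand. Among 32851 windows of this length in the RefSeq table, 12.4% held TATAAA, 33.8% CCAAT and 32.7% GGGCGG. Of 30 windows belonging to 28 of the members, 3, 10 and 19 held these motifs. The matches describe letters in these windows only.

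Cells were assigned to classes from at least 3 detected markers of a class, with no collagen gene in any marker list. Fibroblast-like cells numbered 1044, 1085, 1747 and 2728, and the median cell held 9736, 12173, 11165 and 12898 UMIs. Their 12 fibroblast markers were all detected in every library, with a summed level between 8275 and 10072 CPM. Endothelial-like cells numbered 865, 433, 526 and 16, and mesothelial-like cells, which line the surface of the fat pad, 113, 71, 26 and 53. Pericyte-like and smooth muscle-like cells numbered 9, 1, 4 and 0 and were left out.

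Collagen transcripts made up 1.58%, 3.07%, 3.01% and 4.22% of all UMIs of the fibroblast-like cells. The counting intervals were 1.57% to 1.59%, 3.06% to 3.08%, 3% to 3.01% and 4.21% to 4.22%, so ND_WT was lowest and HFD_DTR highest, with the other 2 close together. In mesothelial-like cells the share was 0.611%, 0.636%, 1.11% and 0.842%. In endothelial-like cells it was 0.130%, 0.157% and 0.2% in the 3 libraries with more than 50 such cells. Lymphoid-like cells (T, NK and innate lymphoid), which are not known to make fibrillar collagen, carried 0.00604%, 0.0143%, 0.0180% and 0.05%.

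For Col1a1, Col1a2 and Col3a1, fibroblast-like cells had the highest level and mesothelial-like cells the next in all 4 libraries, ahead of endothelial-like and lymphoid-like cells. Members above 100 CPM in fibroblast-like cells, 16 or 17 per library, were found in lymphoid-like cells at a median of 0.378%, 0.517%, 0.663% and 1.38% of the fibroblast-like level. The range over those members was 0% to 0.641% in ND_WT and 0.841% to 2.84% in HFD_DTR. This lymphoid-like level is used below as a background level. Its source, such as free RNA in droplets, doublets left in or cells near the gate, was not tested. The background level was higher in HFD_DTR, where fibroblast-like cells were 48.4% of all cells used, than in ND_WT, where they were 20.9%. The median lymphoid-like cell held 2064 UMIs in HFD_DTR and 3744 in ND_WT, and 14.3% and 12.5% of these cells lay near the gate.

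**Figure D1:**
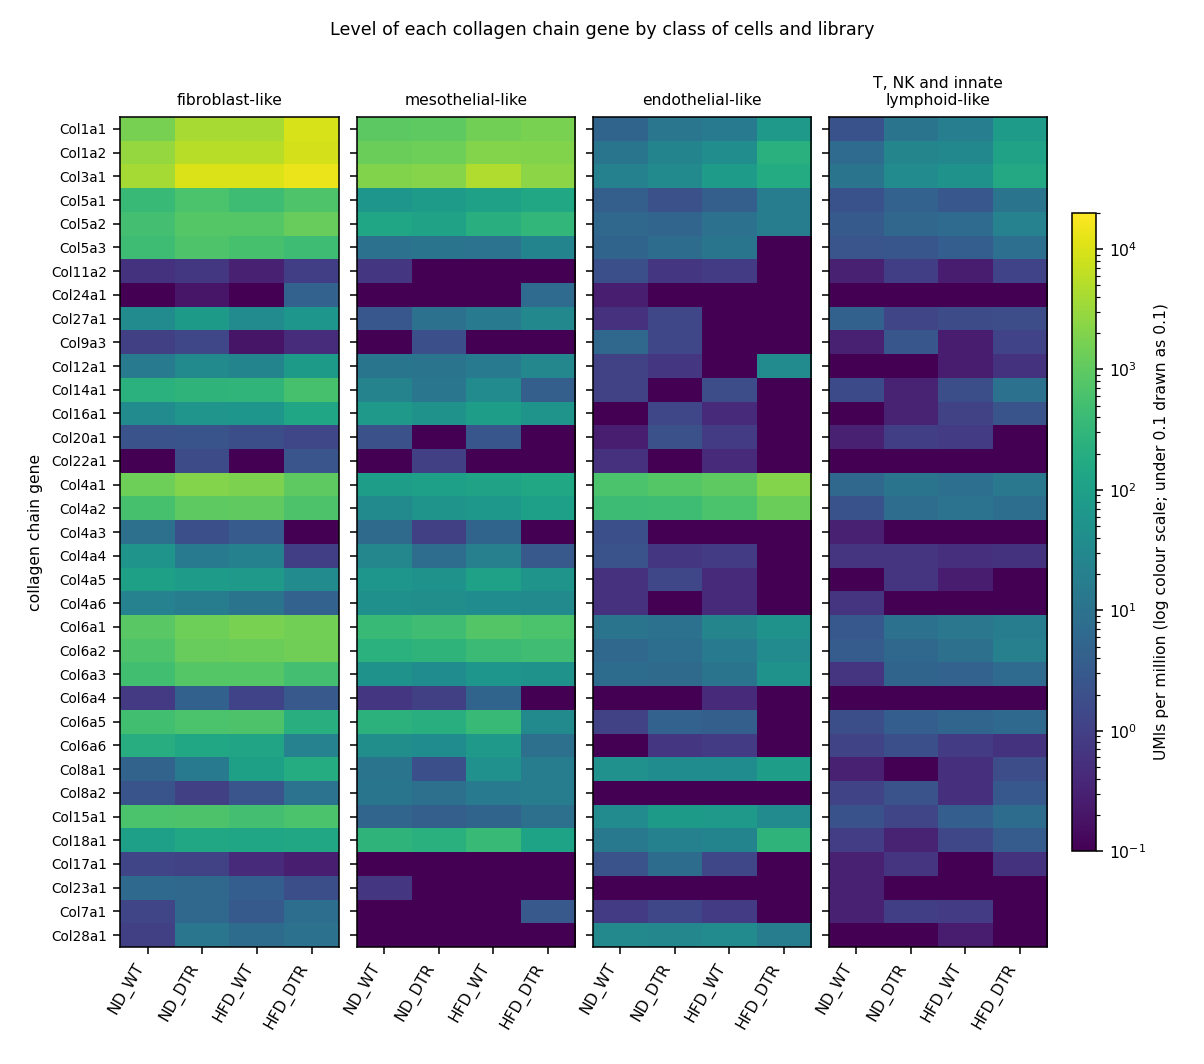
Level of each of the 35 chain genes (rows, ordered by collagen class) in 4 classes of cells, with 1 column per library. Colour is CPM on a log scale, and values under 0.1 are drawn as 0.1; fibrillar and type VI rows are bright in fibroblast-like and mesothelial-like cells, and the Col4a1 and Col4a2 rows also in endothelial-like cells.

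Within the collagen UMIs of fibroblast-like cells, the balance of collagen classes differed between libraries. Fibrillar chains took 62.3%, 72.4%, 71.2% and 83.1% of collagen UMIs. Type IV chains took 13.5%, 10.1%, 9.68% and 4.01%, and type VI chains 17.6%, 13.5%, 15.3% and 8.64%. In CPM, the fibrillar sum was 9858, 22234, 21405 and 35059, the type IV sum 2134, 3113, 2911 and 1692, and the type VI sum 2781, 4150, 4601 and 3642. The lower type IV and type VI shares in HFD_DTR were therefore seen beside sums that were also below those of ND_DTR and HFD_WT. The multiplexins took 724, 808, 650 and 776 CPM, the narrowest range among the 4 collagen classes above 500 CPM in every library.

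**Figure D2:**
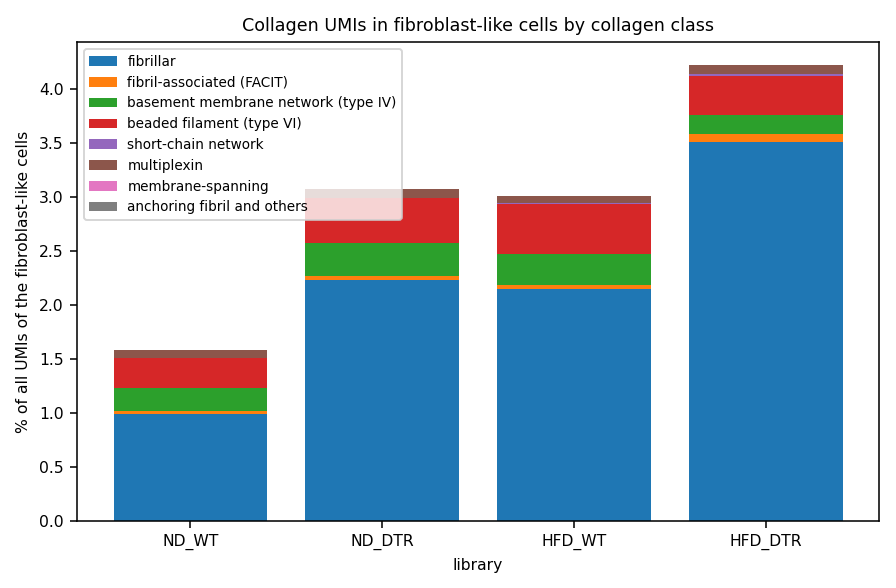
Stacked bars of the share of all UMIs of fibroblast-like cells (vertical axis, percent) taken by each collagen class in the 4 libraries. The whole bar is 1.58% in ND_WT and 4.22% in HFD_DTR, and most of its height is fibrillar chains.

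The type I chains are encoded by Col1a1 and Col1a2, which join in a ratio of 2 to 1 in the protein, and type III by Col3a1, which forms trimers of its own. Col1a1 stood at 1644, 4123, 3964 and 9674 CPM in fibroblast-like cells. Col1a2 stood at 2959, 5373, 5296 and 9323, and Col3a1 at 3871, 10540, 10318 and 13673. All 3 were lowest in ND_WT and highest in HFD_DTR, and ND_DTR and HFD_WT lay nearer to each other than to either of the other libraries.

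The balance between these chains also differed. The ratio of Col1a1 to Col1a2 UMIs was 0.556 (0.545 to 0.566), 0.767 (0.759 to 0.776), 0.749 (0.742 to 0.755) and 1.04 (1.03 to 1.04). Col3a1 exceeded Col1a1 by 2.35, 2.56, 2.60 and 1.41 times. HFD_DTR was thus the library with the highest Col1a1 share of type I transcripts and with the lowest Col3a1 relative to Col1a1.

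The type V chains, which start and limit the width of type I fibres, were less spread. Col5a1 stood at 366, 620, 445 and 702 CPM, Col5a2 at 530, 816, 782 and 1162, and Col5a3 at 451, 683, 563 and 458. Col5a3 in HFD_DTR was next to its ND_WT value, while Col5a1 and Col5a2 were highest in HFD_DTR. Col27a1, a fibrillar chain known mainly from cartilage, was at 36.0, 78.6, 36.6 and 61.0, so it was higher in both libraries labelled DTR.

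The fibril-associated chains Col12a1, Col14a1 and Col16a1 were highest in HFD_DTR. Col14a1, which decorates fibrils and limits their growth, was at 244, 280, 293 and 561 CPM. Col12a1, typical of tissue under load, was at 15, 32.7, 24.9 and 75.6, and Col16a1 was at 36.8, 58.1, 60.3 and 140. After each cell was thinned to 2000 UMIs, 2.01%, 3.32%, 3.79% and 13.7% of fibroblast-like cells had a Col12a1 UMI. No lymphoid-like cell had one at that depth, which allowed a share of up to 1.19% in the library with the fewest such cells, HFD_DTR. For Col14a1 the thinned shares were 25.6%, 32.6%, 34.0% and 61.0%, against 2.27% or less of lymphoid-like cells. Unthinned, the Col12a1 shares were 6.61%, 15.3%, 12.5% and 43.8% and the Col14a1 shares 44.7%, 62.9%, 67.2% and 92.1%.

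The type IV chains parted into 2 patterns. Col4a1 and Col4a2, which form the common network of nearly all basement membranes, stood at 1371, 2031, 1792 and 986 CPM and at 574, 966, 1014 and 664. Both were higher in ND_DTR and HFD_WT than in ND_WT, and HFD_DTR lay below both of those libraries. The other 4 type IV chains had another order, with ND_WT highest and HFD_DTR lowest. Col4a3 was at 9.21, 1.99, 3.38 and 0.0511, Col4a4 at 54.9, 14.7, 21.2 and 0.971, Col4a5 at 102, 82.2, 69.1 and 36.7, and Col4a6 at 22.6, 16.8, 11.0 and 4.75. Col4a3 rested on 92, 28, 67 and 2 UMIs.

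The head-to-head neighbours kept their order but not a fixed ratio. Col4a1 exceeded Col4a2 by 2.39 (2.31 to 2.46), 2.10 (2.06 to 2.15), 1.77 (1.74 to 1.80) and 1.48 (1.46 to 1.51) times. Col4a5 exceeded Col4a6 by 4.53, 4.88, 6.31 and 7.73 times. The ratio of Col4a3 to Col4a4 was 0.168, 0.135, 0.16 and 0.0526 (0.00615 to 0.204), and its 4 intervals overlapped.

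Type VI is a trimer of Col6a1, Col6a2 and a longer chain, which can be Col6a3, Col6a5 or Col6a6. Col6a1 stood at 895, 1369, 1712 and 1458 CPM and Col6a2 at 690, 1196, 1295 and 1422. The longer chains were lower in HFD_DTR than in ND_DTR and HFD_WT: Col6a3 was at 494, 797, 804 and 510, Col6a5 at 501, 640, 666 and 226, and Col6a6 at 202, 144, 123 and 22.9. Col6a3 per Col6a1 UMI was 0.552, 0.582, 0.470 and 0.350. Col6a4, a further long chain, reached at most 4.33.

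Short-chain and multiplexin members went different ways. Col8a1, a network collagen of vessel walls and injured tissue, was at 4.81 (3.54 to 6.37), 14.9 (13.0 to 17.1), 101 (97.0 to 106) and 191 (187 to 196) CPM, higher in both HFD libraries than in both ND libraries. Thinned to 2000 UMIs, 0.705%, 1.61%, 9.74% and 22.7% of fibroblast-like cells had a Col8a1 UMI, against 0.325% or less of lymphoid-like cells (2.49%, 6.08%, 20.8% and 50.8% unthinned). Col8a2, its partner chain, was at 2.40, 0.995, 2.53 and 10.2. Col15a1 was at 625, 666, 513 and 627 and Col18a1 at 99.6, 142, 137 and 149, so these collagens spread less than Col8a1.

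The remaining members were low. Col7a1, the anchoring fibril collagen, was at 1.30, 5.83, 3.23 and 8.10 CPM and Col23a1, a membrane-spanning collagen, at 6.51, 5.97, 3.84 and 1.92. Col28a1 was at 1.00, 11.9, 7.48 and 9.68, lowest in ND_WT with 10 UMIs. Col24a1 had 0, 3, 1 and 178 UMIs and Col22a1 had 0, 24, 1 and 97. Col9a3, Col11a2, Col17a1 and Col20a1 stayed at or below 2.34 in every library.

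Of the 27 members with at least 50 UMIs in every comparison, 12 had their highest level in HFD_DTR and 8 their lowest. ND_WT held the lowest level of 18 and the highest of 5, which were Col4a4, Col4a5, Col4a6, Col6a6 and Col23a1. These orders were not counted over all genes, so whether they are particular to collagens cannot be read from them. The median log2 ratio over all genes was itself 0.32 in HFD_DTR over HFD_WT and 0.13 in HFD_DTR over ND_DTR.

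The first comparison set the labels DTR and WT side by side on a normal diet. In ND_DTR over ND_WT, 29 members had at least 50 UMIs over both libraries of fibroblast-like cells. Of these, 8 were at least 2-fold higher, where 6.82% of all 10983 measured genes were, and 2 were at least 2-fold lower, where 3.01% of all genes were. The 8 were Col28a1 (log2 ratio 3.57, 2.65 to 4.65), Col6a4 (2.44), Col7a1 (2.16), Col8a1 (1.63), Col3a1 (1.45, 1.43 to 1.46), Col1a1 (1.33, 1.30 to 1.35), Col27a1 (1.13) and Col12a1 (1.12). The lower ones were Col4a3 (log2 ratio -2.21, -2.88 to -1.59) and Col4a4 (-1.90, -2.14 to -1.67). Next lowest were Col6a6 (-0.49), Col4a6 (-0.43) and Col4a5 (-0.32). The median log2 ratio was 0.62 over members and 0.11 over all genes. Among 7 fibrillar chains the median was 0.86 and among 6 type VI chains 0.65, against -0.37 among 6 type IV chains. That median counts each chain alike. The most abundant type IV chains, Col4a1 (0.57) and Col4a2 (0.75), were higher in ND_DTR. The type IV sum was also higher there, at 3113 CPM against 2134 in ND_WT. Col22a1 was not seen in ND_WT and had 24 UMIs in ND_DTR, at least 5.67-fold higher by the floor of 3 UMIs.

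The second comparison set the same labels side by side on a high fat diet. In HFD_DTR over HFD_WT, 8 of 32 members were at least 2-fold higher, where 16.6% of 12419 genes were, so this count stands closer to the background than the others. At least 2-fold lower were 6, where 3.66% of genes were. The log2 ratio was highest for Col24a1 (6.49, 4.00 to 11.80) and Col22a1 (5.62, 3.1 to 10.93), which had 1 UMI each in HFD_WT. Col8a2 (2.01, 1.59 to 2.47), Col12a1 (1.60, 1.46 to 1.74), Col6a4 (1.39), Col7a1 (1.32), Col1a1 (1.29, 1.28 to 1.30) and Col16a1 (1.22) followed. Lowest were Col4a3 (-6.05, -9.12 to -4.14), Col4a4 (-4.45, -4.97 to -3.97), Col6a6 (-2.43, -2.54 to -2.32), Col6a5 (-1.56, -1.60 to -1.52), Col4a6 (-1.21) and Col23a1 (-1.0).

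By collagen class the median log2 ratio in HFD_DTR over HFD_WT was 0.70 for fibrillar, 1.22 for fibril-associated, -1.06 for type IV and -0.44 for type VI chains. The median log2 ratio was 0.33 over members and 0.32 over all genes, and TMM scaling (trimmed mean of M values) moved every ratio down by 0.30. Under TMM the split was 6 higher and 8 lower, and with each cell scaled to the same total it was 11 and 5. Col6a2, Col15a1 and Col18a1 had log2 ratios of 0.14, 0.29 and 0.12, and their sign turned under TMM, to -0.17, -0.01 and -0.18. Col3a1 at 0.41 was close to the median of all genes.

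The third comparison addressed diet in the libraries labelled WT. In HFD_WT over ND_WT, 5 of 29 members were at least 2-fold higher, where 2.79% of 11037 genes were, and 3 were at least 2-fold lower, where 4.03% were. The higher ones were Col8a1 (log2 ratio 4.40, 3.99 to 4.84), Col28a1 (2.90, 1.98 to 3.99), Col3a1 (1.41, 1.40 to 1.43), Col7a1 (1.31) and Col1a1 (1.27, 1.25 to 1.29). The lower ones were Col4a3 (-1.44), Col4a4 (-1.37, -1.56 to -1.19) and Col4a6 (-1.05), followed by Col23a1 (-0.76) and Col6a6 (-0.71). TMM scaling gave 7 higher and 2 lower. The median was 0.41 over members and -0.08 over all genes.

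The fourth comparison addressed diet in the libraries labelled DTR. In HFD_DTR over ND_DTR, 7 of 31 members were at least 2-fold higher (8.37% of 12375 genes) and 7 at least 2-fold lower (4.53% of genes). Col24a1 (log2 ratio 4.42, 2.84 to 6.71, on 3 UMIs in ND_DTR), Col8a1 (3.68, 3.48 to 3.89), Col8a2 (3.36), Col16a1 (1.27), Col1a1 (1.23), Col12a1 (1.21) and Col14a1 (1.00) were higher. Col4a4 (-3.92, -4.46 to -3.42), Col6a6 (-2.65, -2.77 to -2.54), Col4a6 (-1.83), Col23a1 (-1.64), Col6a5 (-1.5), Col4a5 (-1.16) and Col4a1 (-1.04) were lower. The median log2 ratio was 0.07 over members and 0.13 over all genes. The 4 comparisons share libraries pairwise, so their values are not separate observations of each other.

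**Figure D3:**
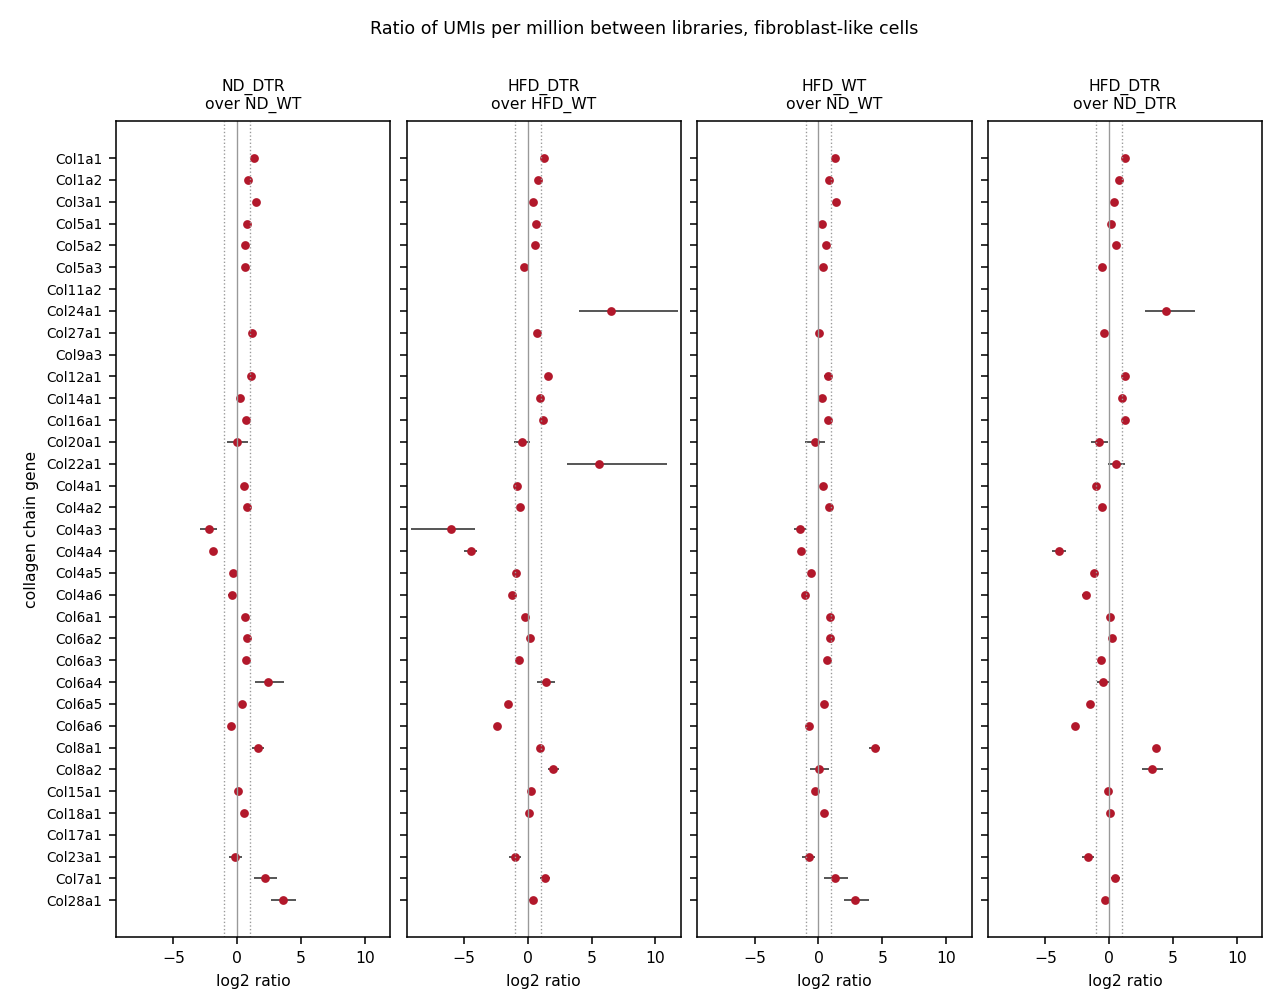
Log2 ratio of CPM in fibroblast-like cells for each chain gene with at least 50 UMIs over both libraries, in 4 comparisons. Points are ratios, lines are 95% counting intervals, and dotted lines mark 2-fold; Col1a1 lies between 1.23 and 1.33 in all 4, and Col4a4 lies left of the lower dotted line in all 4.

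The make-up of the fibroblast-like cells differed between libraries. The cells with most contractile and injury markers (Tnc, Cnn1, Acta2, Tagln and 6 others) numbered 10, 17, 40 and 875, or 32.1% of fibroblast-like cells in HFD_DTR and at most 2.29% elsewhere. Committed preadipocyte marker cells (Pparg, Fabp4, Lpl and others) were 62.2%, 63.2%, 56.6% and 11.7%, and early progenitor marker cells (Pi16, Dpp4 and others) 14%, 8.94%, 8.82% and 5.83%. The remaining cells, where no sublist led by the margin of 2, were 22.9%, 26.3%, 32.3% and 50.4%. In HFD_DTR these cells of no sublist were the largest group, at 1374 cells. In clusters computed without the collagen genes, the cluster with the largest share of fibroblast-like cells was cluster 5 in ND_WT (60.5%), 9 in ND_DTR (55.9%), 1 in HFD_WT (65.6%) and 0 in HFD_DTR (47.5%). Each library thus had its own leading cluster. Summed pericyte and smooth muscle markers in fibroblast-like cells were 167, 242, 140 and 299 CPM with all 11 detected. Summed dendritic markers were 65.4, 162, 84.8 and 216, and summed B cell markers 374, 475, 397 and 323 (9, 9, 10 and 10 of 10 detected). Their part in the ratios was not tested.

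In committed preadipocyte marker cells collagen was 1.61%, 3.04%, 2.97% and 4.33% of UMIs, and in early progenitor marker cells 1.16%, 1.81%, 1.69% and 2.72%. Both sublists had ND_WT lowest and HFD_DTR highest. In contractile marker cells it was 3.04%, 2.67%, 5.18% and 4.46%, another order, on 10, 17, 40 and 875 cells. In cells of no sublist collagen was 1.81%, 3.67%, 3.22% and 4.22% of UMIs. Without the contractile cells, 4.08% of the UMIs of fibroblast-like cells in HFD_DTR were collagen.

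Several ratios were as large inside the committed sublist as over all fibroblast-like cells. There, Col1a1 was at 1491, 3850, 3754 and 9377 CPM and Col3a1 at 3756, 10176, 10123 and 15023. Col4a1 was at 1582, 2243, 1921 and 1096, and Col4a4 at 64.7, 18.9, 23.8 and 1.53. In this sublist, 7 of 26 members were at least 2-fold higher in ND_DTR over ND_WT (5.65% of genes), and 5 of 27 in HFD_DTR over HFD_WT (9.81% of genes). At least 2-fold lower were 2 (2.98% of genes) and 3 (2.8% of genes). For diet, 6 of 26 were higher (3.13% of genes) and 4 lower (4.55% of genes) in HFD_WT over ND_WT, and 4 of 26 higher (6% of genes) and 6 lower (4.01% of genes) in HFD_DTR over ND_DTR. In early cells, 4 of 21 were higher (10.7% of genes) and 1 lower (3.46% of genes) in ND_DTR over ND_WT, and 3 of 21 higher (15% of genes) and none lower (3.96% of genes) in HFD_DTR over HFD_WT. Diet gave 2 of 20 higher (1.48% of genes) and none lower (1.64% of genes) in HFD_WT over ND_WT, and 2 of 21 higher (4.07% of genes) and 2 lower (3.57% of genes) in HFD_DTR over ND_DTR there. Near the edge of a sublist, with the smallest margin allowed, lay 183 of the 320 committed and 382 of the 875 contractile cells of HFD_DTR.

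Other ratios differed by sublist. Col6a5 was higher in committed than in early cells, at 600, 817, 767 and 515 CPM against 111, 53.4, 117 and 66.6. Contractile cells had Col6a5 at 351 in HFD_WT (40 cells) and 126 in HFD_DTR, so it did not mark the committed cells alone. Its log2 ratio in HFD_DTR over HFD_WT was -1.56 over all fibroblast-like cells and -0.58 (-0.65 to -0.51) in committed cells. Col15a1 was higher in committed than in early cells, at 796, 776, 546 and 658 against 55.7, 80.1, 112 and 202. It did not mark the committed cells alone, since the contractile cells of HFD_DTR had it at 673. Col14a1 was higher in early than in committed cells. It was at 878, 894, 935 and 746 in early cells, with little spread, and at 70.0, 142, 185 and 532 in committed cells.

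Col8a1 and Col5a3 also depended on the sublist. In committed cells Col8a1 was at 1.24, 1.71, 63.2 and 64.0 CPM, far higher in both HFD libraries. Its ratio between labels on the high fat diet there had an interval that spanned 0 (log2 ratio 0.02, -0.19 to 0.23). In early cells it was at 10.1, 67.8, 104 and 165, and in the contractile cells of HFD_DTR at 294. Col5a3 in early cells was at 263, 770, 294 and 831, higher under the DTR label on both diets. The log2 ratio was 1.5 (1.35 to 1.64) in HFD_DTR over HFD_WT. In committed cells the same ratio was -0.49 (-0.56 to -0.41), on 425 against 596. The ratio of Col5a3 in HFD_DTR over HFD_WT thus had opposite signs in the early and the committed cells.

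**Figure D4:**
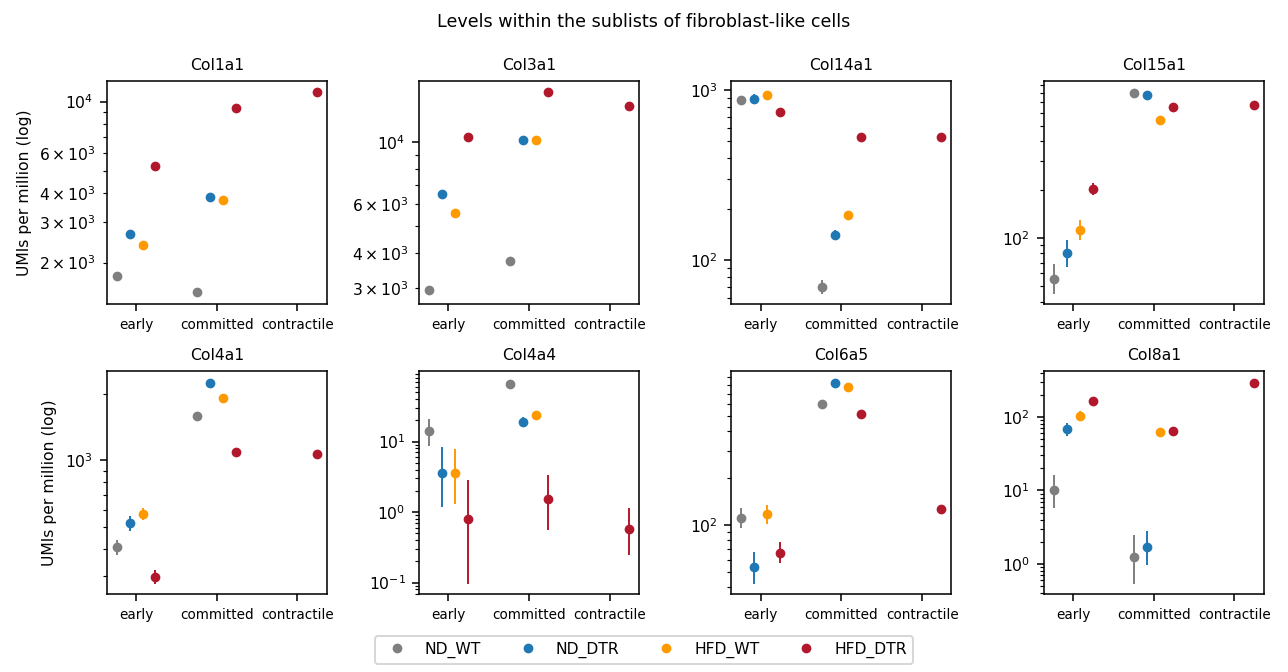
Levels of 8 chain genes (CPM, log axes) in early progenitor, committed preadipocyte and contractile marker cells, with 1 point per library and 95% counting intervals as lines. Contractile cells are drawn for HFD_DTR only (875 cells), and Col14a1 and Col15a1 show opposite orders between early and committed cells.

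Endothelial-like cells had a collagen repertoire of their own. Type IV chains made up 82.9%, 81.1% and 80.1% of their collagen UMIs in ND_WT, ND_DTR and HFD_WT. Col4a1 stood at 644, 812 and 971 CPM and Col4a2 at 427, 459 and 628, against 5.95, 11.0 and 8.45 and 2.19, 7.80 and 10.4 in lymphoid-like cells. Col4a1 exceeded Col4a2 by 1.51, 1.77 and 1.55 times. The 16 endothelial-like cells of HFD_DTR were too few for a ratio.

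Other chains of endothelial-like cells also stood clear of the background level. Col8a1 was at 47.3, 37.4 and 37.3 CPM, and Col28a1 at 31.8, 28.5 and 36.0, each against 0.545 or less in lymphoid-like cells. Col15a1 was at 35.5, 78.8 and 74.2, and Col18a1, the source of endostatin, at 14.1, 21.1 and 24.4. Col28a1 was therefore higher in endothelial-like than in fibroblast-like cells in these 3 libraries, and Col8a1 was higher in endothelial-like cells in both ND libraries but not in HFD_WT.

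The fibrillar chains of endothelial-like cells lay near the background level. Col1a1 was at 5.07, 12.2 and 14.7 CPM, against 2.19, 10.7 and 18.3 in lymphoid-like cells. Col3a1 was at 21.1, 34.0 and 80.9 against 11.0, 35.4 and 53.4. Of 9 members measured in ND_DTR over ND_WT, 2 were at least 2-fold higher (1.17% of genes) and none lower (1.37% of genes). These were Col15a1 (log2 ratio 1.15, 0.77 to 1.53) and Col1a2 (1.12, 0.43 to 1.80). The lowest were Col8a1 (-0.34) and Col6a1 (-0.21). Of 12 in HFD_WT over ND_WT, 6 were at least 2-fold higher (0.719% of genes) and none lower (2.48% of genes). They were Col1a1, Col1a2, Col3a1, Col6a1, Col6a2 and Col15a1, of which Col15a1 alone stood more than 10-fold above its lymphoid-like level in both libraries. In these cells of ND_WT, ND_DTR and HFD_WT, summed fibroblast markers were at 42, 57 and 80 CPM (11, 11 and 12 of 12 detected). Summed adipocyte transcripts were at 3384, 1990 and 227 (8 of 8 detected in each), and B cell markers at 905, 410 and 304 (10, 8 and 9 of 10). Their part in the ratios was not tested. Among the 12 members in HFD_WT over ND_WT, the highest were Col3a1 (1.94) and Col1a2 (1.81), and the lowest Col8a1 (-0.34, -0.74 to 0.04) and Col28a1 (0.18, -0.25 to 0.60).

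**Figure D5:**
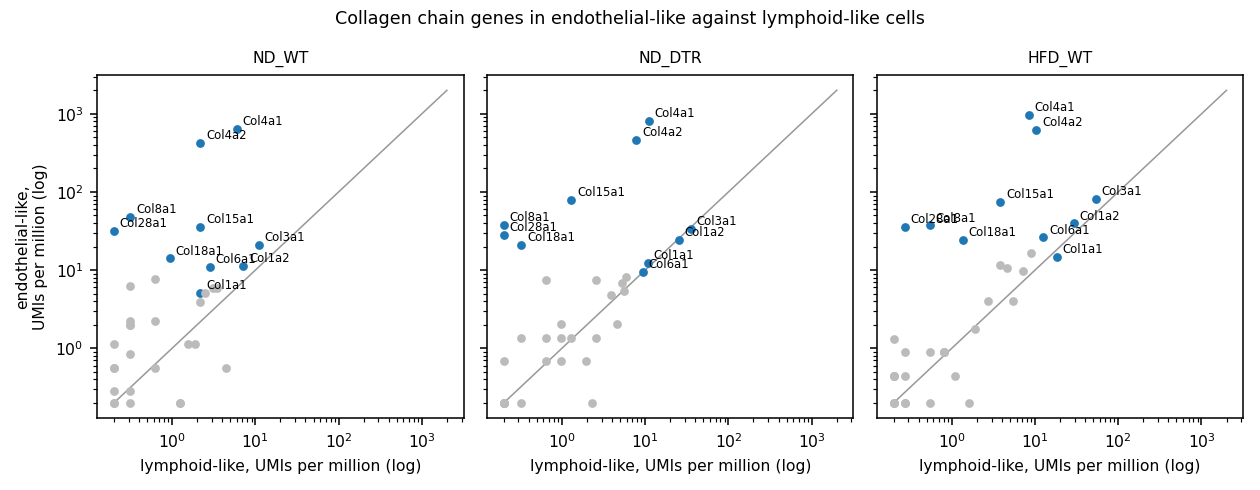
Level of each chain gene in endothelial-like cells (vertical, CPM, log) against lymphoid-like cells (horizontal, log) in 3 libraries, with values under 0.2 drawn at 0.2 and the line of equal level. Col4a1, Col4a2, Col8a1, Col15a1 and Col28a1 lie far above the line, and Col1a1, Col1a2 and Col3a1 lie near it.

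Mesothelial-like cells carried fibrillar and type VI chains at lower levels than fibroblast-like cells. They also held fibroblast markers at a summed 1978, 1736, 2196 and 603 CPM, whose part in these levels was not tested. Col1a1 was at 914, 975, 1500 and 1707 CPM, Col3a1 at 2019, 2215, 4564 and 2406, and Col6a1 at 390, 468, 763 and 641. Col1a2 was at 1310, 1336, 2034 and 1986, and Col5a2 at 131, 114, 226 and 324. HFD_WT, with 26 cells, entered no ratio here. Col6a5 was at 252, 210, 365 and 32.9, lowest in HFD_DTR as in fibroblast-like cells. Col18a1 was above its fibroblast-like level in ND_WT, ND_DTR and HFD_WT, at 285, 230, 378 and 120, and so was Col4a6 in all 4 libraries, at 45.1, 42.6, 38.5 and 33.9.

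Across labels on the normal diet, none of 17 members was at least 2-fold higher in mesothelial-like cells (3.25% of genes) and 1 was lower (1.68% of genes). That was Col4a4, at 28.7 and 7.93 CPM (log2 ratio -1.86, -3.16 to -0.75). Col1a1 had a log2 ratio of 0.09 (-0.03 to 0.21) and Col3a1 of 0.13 (0.05 to 0.21), against 1.33 and 1.45 in fibroblast-like cells. The difference between the classes was not tested, and with clusters in place of gates the Col3a1 value was -0.09. Col4a2 (0.76) and Col5a1 (0.40) were the highest, and Col16a1 (-0.49) was next to Col4a4 at the low end. In HFD_DTR over ND_DTR, 1 of 15 was at least 2-fold higher, Col5a2 (1.51, 1.20 to 1.83), where 10.7% of genes were, followed by Col4a2 (0.86). The lower one was Col6a5 (-2.67, -3.25 to -2.14), where 8.26% of genes were, and Col18a1 followed at -0.94. In mesothelial-like cells of ND_DTR and HFD_DTR, summed fibroblast markers were at 1736 and 603 CPM (11 of 12 detected in each), mesothelial markers at 6325 and 4271 (11 of 11) and dendritic markers at 34.7 and 293 (4 and 3 of 12). Their part in these ratios was not tested.

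Genes that fold, trim and bind collagen were read in fibroblast-like cells as lists. Of 18 genes for folding, hydroxylation and secretion, 1 of 17 was at least 2-fold higher in ND_DTR over ND_WT, 3 of 18 in HFD_DTR over HFD_WT, 1 of 17 in HFD_WT over ND_WT and 2 of 18 in HFD_DTR over ND_DTR, and none was 2-fold lower. Over all genes, 6.82%, 16.6%, 2.79% and 8.37% were 2-fold higher and 3.01%, 3.66%, 4.03% and 4.53% lower, so the counts of higher genes in both label comparisons were near the background. Their median log2 ratios were 0.45, 0.50, 0.41 and 0.47. Serpinh1, the collagen chaperone HSP47, stood at 688, 1039, 1425 and 1285 CPM, and Plod2, a lysyl hydroxylase of crosslinking sites, at 100, 180, 129 and 322. P4ha3, a prolyl hydroxylase subunit, had a log2 ratio of 4.15 (3.47 to 4.91) in HFD_DTR over HFD_WT, from 18 to 630 UMIs.

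Of 12 genes for propeptide removal and crosslinking, 10 or 11 were measured, with median log2 ratios of 0.58, 0.52, 0.08 and 0.20 in the same comparisons. At least 2-fold higher were 1, 2, 1 and 0 (6.82%, 16.6%, 2.79% and 8.37% of all genes), and lower 1, 1, 0 and 0 (3.01%, 3.66%, 4.03% and 4.53%). Pcolce, which enhances removal of the C-terminal propeptide, was at 283, 519, 728 and 859 CPM, while its relative Pcolce2 was at 404, 196, 420 and 129, lower in both libraries labelled DTR. Loxl1, a crosslinking oxidase, was at 349, 604, 548 and 1047. Of 10 receptor and uptake genes, 7 or 8 were measured, with medians of 0.20, 0.53, -0.07 and 0.37. At least 2-fold higher were 1, 2, 0 and 0, and lower 0, 0, 1 and 0, beside the same shares of all genes. Ddr2, a receptor kinase for fibrillar collagen, was at 499, 389, 361 and 217, highest in ND_WT and lowest in HFD_DTR. Ddr1, of the same list, was at 17.8, 38.5, 14.4 and 48.8, higher in both libraries labelled DTR. Mrc2, an uptake receptor, was at 109, 155, 140 and 209.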

How the data were processed

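Raw UMI counts of all 4 libraries were deposited as 1 matrix of genes by barcodes. The submitters' processing notes name Cell Ranger 3.1.0 and the mm10 build. The 32 sample records are 8 runs per library. Barcode suffixes were tied to libraries through the order of the aggregation list alone.

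A minimum of 300 genes and a maximum of 10% mitochondrial UMIs removed 9.33% to 22.5% of barcodes. Scrublet called 0.745% to 1.29% of the rest doublets, fewer than the stated rate of 5.4%, and these were removed. A cell took a class when at least 3 markers were detected, the next class had at most 0.6 times as many, and the margin was at least 2. These thresholds, and the margin of 2 for sublists, were set after the data were seen.

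Sums of UMIs by class and library were scaled to the class total (CPM). Levels carry exact Poisson intervals, ratios conditional exact binomial intervals and shares Clopper-Pearson intervals, at 95%; intervals and the floor of 3 UMIs cover counting error only. A ratio needed 50 UMIs over both libraries and 50 cells in each, and a 2-fold ratio was counted. Values in every library were given for members that reached 20 CPM in a library of the fibroblast-like, endothelial-like or mesothelial-like class (the rule also named pericyte-like cells, which were too few). Ratios were named for the 5 highest and 5 lowest members per comparison in fibroblast-like cells, and for 2 and 2 in the other classes. The interval code was tested on simulated data. Members and lists were chosen with earlier results of these data known. Alternatives were other cell filters, doublets kept, a stricter gate, clusters in place of gates, other scalings and UMI minimums, and thinning; leaving out low copies of shared barcodes or contractile cells was chosen after seeing the data. Software was Python 3.11.15, scanpy 1.11.5, leidenalg 0.10.2, numpy 2.4.6 and scipy 1.17.1. Gene positions came from GENCODE M21, and all 35 members were found in it.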

Additional observations from a re-analysis of the deposited data

Results flagged for a closer look

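For 6 members of fibroblast-like cells, the log2 ratio of the library labelled DTR over that labelled WT had opposite signs on the diets, with counting intervals on either side of 0. These are 20.7% of the 29 members measured in both comparisons. Of all 10947 genes so measured, 5.83% met the same rule, which genes with many UMIs meet more easily because their intervals are narrow. The difference was not tested, because each group is 1 library. Col6a5 (-1.56 on the high fat diet, 0.35 on the normal diet) had the widest gap among the 3 type VI chains with opposite signs, followed by Col6a3 (-0.66 and 0.69) and Col6a1 (-0.23 and 0.61). Both chains of the common type IV network, Col4a1 (-0.86 and 0.57) and Col4a2 (-0.61 and 0.75), were among them, and so was the type V chain Col5a3 (-0.30 and 0.60). On the high fat diet the contractile marker cells differed beside them, at 2.29% and 32.1% of fibroblast-like cells. In committed preadipocyte marker cells alone, the high fat ratios were -0.81 for Col4a1, -0.55 for Col4a2, -0.24 for Col6a1, -0.54 for Col6a3, -0.58 for Col6a5 and -0.49 for Col5a3, so each kept its sign there. In early progenitor marker cells, Col6a5 had the same sign on both diets, at -1.06 (-1.47 to -0.66) on the normal and -0.81 on the high fat diet. There, on the high fat diet, Col5a3 was at 1.5 and Col6a3 at 0.03.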

How the results depend on the processing

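No paired analysis was possible because each group is 1 library and no test was run. Of 104 counts of 2-fold members under 13 alternatives, 94 lay within 1.5 times the main count. In ND_DTR over ND_WT the count of higher members was 5 in place of 8 with each cell scaled to the same total and with a minimum of 200 UMIs, and 4 with cells thinned to 2000 UMIs. The count of lower members there was 1 in place of 2 with the 200 UMI minimum and when thinned. With the 200 UMI minimum, higher members were 5 in place of 8 in HFD_DTR over HFD_WT and 3 in place of 5 in HFD_WT over ND_WT. Lower members in HFD_WT over ND_WT were 5 in place of 3 with a minimum of 10 UMIs and 1 when thinned, and in HFD_DTR over ND_DTR 4 in place of 7 when thinned. The UMI minimum and the thinning leave fewer or more members measured. The collagen share of fibroblast-like cells (1.58%, 3.07%, 3.01% and 4.22%) was 1.57%, 2.94%, 2.74% and 4.54% with each cell scaled to the same total and 1.53%, 2.95%, 2.76% and 4.56% when thinned. It was 3.17%, 3.02% and 4.2% for ND_DTR, HFD_WT and HFD_DTR with the stricter cell filter and 3.08%, 2.93% and 4.08% without contractile cells. HFD_WT was at 3.00% with doublets kept, and HFD_DTR at 4.2% with clusters in place of gates and 4.24% with the stricter gate. Col24a1 in HFD_DTR over HFD_WT had no ratio with clusters, the stricter gate or contractile cells left out, since HFD_WT then had no UMI. The cause of these shifts was not tested. No single-member ratio of at least 2-fold turned its sign, and among smaller ratios in fibroblast-like cells 12 did, none of them above 0.47 in size on the log2 scale. Depth limits the members with few UMIs (Col4a3, Col22a1 and Col24a1), whose ratios rest on 1 to 3 UMIs in a library.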

Other observations

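Col27a1 was also found in myeloid cells, with its highest class level in ND_WT. In macrophage-like and monocyte-like cells it was at 33.3 (28.6 to 38.4), 4.94, 5.96 and 5.20 CPM in ND_WT, ND_DTR, HFD_WT and HFD_DTR, and in dendritic-like cells at 27.2, 11.1, 17.6 and 13.5. In lymphoid-like cells of the same libraries it was at 4.38, 1.30, 1.63 and 1.76. Fibroblast-like cells of ND_WT had Col27a1 at 36.0, close to its level in the macrophage-like cells of that library, whereas Col1a1 was at 1644 and 2.35. Within macrophage-like and monocyte-like cells of ND_WT, cluster 10 held it at 84.2 (65.4 to 107) and cluster 8 at 31.1 (25.3 to 37.9), while cluster 7 had no UMI in 104 cells, which allows up to 12.5. In ND_DTR, HFD_WT and HFD_DTR, cluster 10 held it at 15.4, 34 (21.5 to 51) and 3.25. Cluster 8 held it at 9.55, 4.95 and 22.6 (9.74 to 44.4) there, the last overlapping the interval of ND_WT. The macrophage-like and monocyte-like cells of cluster 8 numbered 346, 29, 319 and 48 in the 4 libraries. The part of this cluster mix in the class levels was not tested. Of the dendritic-like cells of ND_WT, 50% lay near the edge of the gate, as did 18.4% of its macrophage-like and monocyte-like cells.

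Col18a1 in macrophage-like and monocyte-like cells was at 0.181, 5.32, 1.90 and 4.76 CPM, against 0.940, 0.325, 1.36 and 3.51 in lymphoid-like cells, so ND_DTR was the library where it stood apart.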
